A study of Mus musculus with 9 samples.

Results

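The pan-endothelial genes examined here are 10 genes whose products mark blood vessel endothelium in most organs: the receptors *Kdr*, *Flt1*, *Tek*, *Tie1* and *Eng*, the surface and junction proteins *Pecam1*, *Cdh5* and *Emcn*, the fenestral protein *Plvap* and the transcription factor *Erg*. They were chosen by symbol, and each matched 1 locus of the 24138 in the deposited expression table, with no second gene name joined to that locus. Expression was measured by RNA-seq of whole mouse kidneys at E15.5 (E, embryonic day), in 9 libraries from 3 genotypes with 3 kidneys of each, collected from 3 separate crosses of *Ntn1fl/fl* with *Foxd1GC/+;Ntn1fl/+* mice. MUT kidneys were *Foxd1GC/+;Ntn1fl/fl*, HET kidneys were *Foxd1GC/+;Ntn1fl/+* and WT kidneys were *Ntn1fl/fl* with no Cre. The lines were kept on a C57Bl6/J background and embryos of both sexes were used. All 3 genotypes carried at least 1 floxed allele of *Ntn1*, which encodes the secreted guidance cue netrin 1. The *Foxd1GC* allele puts a GFP-Cre fusion into the *Foxd1* gene, so that HET and MUT kidneys also lacked 1 working *Foxd1* copy, and it drives Cre in Foxd1+ stromal progenitors. A difference of HET or MUT from WT therefore cannot be told apart from the effect of Cre or of the lost *Foxd1* copy, whereas MUT and HET differ in the second floxed *Ntn1* allele. The question put to these genes was whether their level in the kidney differed when stromal *Ntn1* was deleted.

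Endothelial cells enter the embryonic kidney and spread through its stroma to form arteries, veins and the capillaries that surround nephrons and fill glomeruli. Vascular endothelial growth factor (VEGF) made by podocytes and tubules acts through the receptor tyrosine kinases KDR and FLT1, angiopoietins made largely by mural and stromal cells act through TEK, and ENG assists the receptors for bone morphogenetic proteins. VE-cadherin (CDH5) and CD31 (PECAM1) hold neighbouring endothelial cells together, and ERG, a factor of the ETS family, keeps many endothelial genes on.

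No difference between genotypes passed the test for any of the 10 genes. On the scale of FPKM + 1, which understates differences of low genes, fitted levels of MUT and HET differed by at most 1.3-fold (*Flt1*). The highest values of several members lay in WT-1 and MUT-1, libraries of different genotype. In the values below, FPKM are fragment counts scaled to transcript length and to library size, which can be set beside each other between genes. Means are given with the SD of 3 libraries. Tests between genotypes were two-sided limma tests on log2(FPKM + 1) over the loci that averaged 5 FPKM or more in at least 1 of the genotypes compared, with Benjamini-Hochberg adjustment. Each library came from 1 kidney, and each limma p-value rests on the spread between the 6 libraries compared. In limma the variance of a locus is also drawn towards that of other loci. Kidneys were treated as independent, whatever their cross. RNA from whole kidney cannot tell fewer endothelial cells from less RNA per endothelial cell.

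The 10 members spanned a wide range of levels. Averaged over 9 libraries, *Emcn* (64.8 FPKM) and *Plvap* (63.6 FPKM) were the most abundant, followed by *Pecam1* (41.4), *Cdh5* (38.5), *Tie1* (27.5), *Eng* (25.2), *Kdr* (20.1), *Tek* (18.1), *Erg* (8.14) and *Flt1* (4.86 FPKM). Neighbours in this order were separated without overlap at 3 steps. The lowest *Plvap* value, 49.5 FPKM, was above the highest *Pecam1* value, 45.6 FPKM. The lowest *Cdh5* value (33.0) was just above the highest *Tie1* value (32.3), and the lowest *Tek* value (16.1) was above the highest *Erg* value (10.3 FPKM). At the other 6 steps the ranges of neighbours overlapped, although *Tie1* was above *Eng*, and *Erg* above *Flt1*, in 9 of 9 libraries. *Pecam1* varied least of the members, with a coefficient of variation of 5.89% over the 9 libraries, and *Flt1* most, with 29.3%. The median over the members was 14.0%, beside 11.7% over the 10164 loci expressed in any genotype.

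Several facts of the whole series bear on these values. Markers of the labelled tissue were present in every library, with summed FPKM of 137 to 227 for nephron progenitors and 95.3 to 128 for the ureteric epithelium. The number of reads is unknown. Relative depth, read from the spacing of the lowest FPKM with WT-1 set to 1, ranged from 0.578 in WT-2 to 1.275 in MUT-1. *Ntn1* was at 17.8 to 28.9 FPKM in WT, 12.0 to 16.5 FPKM in HET and 10.8 to 16.5 FPKM in MUT kidneys. The targeted gene was therefore lower in every Cre-carrying library than in every WT library. Neither drop from WT passed an adjusted p under 0.05 in limma (log2 fold change -0.87 for MUT and -0.78 for HET). HET and MUT overlapped (log2 fold change -0.10, adjusted p = 0.887, limma). By staining, the study found little or none of the encoded protein around nephron progenitors in MUT kidneys. It also reported weaker expression of the gene in the proximal tubule, seen more specifically at a postnatal stage. Whole-kidney FPKM include this tubule, and its part in the *Ntn1* values was not tested. *Foxd1* was at 25.8 to 33.7 FPKM in WT, 20.2 to 21.7 in HET and 22.5 to 24.8 in MUT. The summed FPKM of 5 liver markers was 568 in HET-2 and between 26.7 and 49.4 in the other 8 libraries, and the same library had the highest sum of erythroid markers, 3470 against 1910 to 2280 in the others. Values of members in HET-2 are given with this in view, and the part of this library in a result was not tested beyond leaving it out.

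For 7 of the 10 members, RefSeq promoter windows on GRCm38.p6 were at hand, as 9 windows because *Erg* has 3. The stretch of 250 bases upstream of each start site was searched on both strands for short motifs. ERG and its relatives bind DNA at a GGAA core, and GGAAGT was found upstream of *Kdr*, *Flt1*, *Tie1* and *Eng*, that is in 4 of 9 windows, whereas 19.7% of 32851 promoter windows of the same length held it. CAGGAAG was found in the windows of *Emcn* and of 1 *Erg* start site (10.8% of all windows), and the combined FOX:ETS letters AACAGGAA were found in *Emcn* (2.25% of all windows), where they overlap CAGGAAG. Of the other motifs, AGATAA was found in 1 *Erg* window (9.99% of all windows), ACAAAG in *Tek* and *Eng* (16.5%), and TATAAA in *Flt1* and 1 *Erg* window (12.4%). These are matches of letters and not sites shown to be bound. The last 100 bases before the start site are printed for *Flt1*, *Tie1* and *Eng*, which hold GGAAGT within these bases, and for *Tek*, a receptor of the same class as *Tie1* whose window held none of the 3 ETS strings. *Kdr* holds GGAAGT further upstream. Each is written from 5′ to 3′ on the strand of the gene, at chr5:147726012-147726111 (minus strand) for *Flt1*, chr4:118489850-118489949 (minus strand) for *Tie1*, chr2:32646495-32646594 (plus strand) for *Eng* and chr4:94739189-94739288 (plus strand) for *Tek*. Capitals mark GGAAGT, which reads ACTTCC where it lies on the opposite strand. The bare core GGAA was not searched for. Unmarked copies of it lie in the printed bases of each gene, in *Tek* as ttcc on the opposite strand.
Flt1: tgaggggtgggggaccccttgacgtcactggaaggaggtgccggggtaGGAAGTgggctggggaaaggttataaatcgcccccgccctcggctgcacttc
Tie1: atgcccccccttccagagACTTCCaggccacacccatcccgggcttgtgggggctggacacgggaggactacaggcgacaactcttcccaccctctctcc
Eng: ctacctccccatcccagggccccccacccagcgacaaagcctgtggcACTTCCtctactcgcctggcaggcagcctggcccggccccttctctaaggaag
Tek: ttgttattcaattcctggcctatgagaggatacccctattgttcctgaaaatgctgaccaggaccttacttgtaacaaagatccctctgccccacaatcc
Counted from the start site, the motif began at -52 in *Flt1*, -82 in *Tie1* and -53 in *Eng*.

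*Kdr* (chromosome 5, 75933270 to 75978428, mm10) encodes VEGF receptor 2, the main signalling receptor for VEGFA. It stood at 24.6, 18.9 and 18.8 FPKM in the WT libraries, at 17.4, 20.0 and 19.5 in the HET libraries, and at 26.7, 17.7 and 17.0 in the MUT libraries, each in the order of their numbers. WT-1 and MUT-1 were above the other 7 libraries, and the genotypes overlapped. The MUT mean of 20.5 ± 5.37 was close to the HET mean of 19.0 ± 1.4 and the WT mean of 20.8 ± 3.29, and the log2 fold change of MUT over HET was 0.08 (95% confidence interval -0.26 to 0.42).

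*Flt1* (chromosome 5, 147562196 to 147725988) encodes VEGF receptor 1, which binds VEGF and placental growth factor and in a soluble form captures them. Its level was 7.29, 4.22 and 4.09 FPKM in the WT libraries, 3.57, 4.15 and 3.97 in the HET libraries and 7.30, 4.84 and 4.27 in the MUT libraries. Again WT-1 and MUT-1 stood apart, near 7.3 FPKM. The lowest MUT library, MUT-3, was just above the highest HET library, HET-2, so that *Flt1* was the single member for which MUT and HET did not overlap (exact permutation test, two-sided, p = 0.1, the smallest that 3 against 3 libraries can give). *Flt1* had the largest difference of the members, a 1.3-fold higher fitted level of FPKM + 1 in MUT (log2 fold change over HET 0.38, SE 0.19, adjusted p = 0.738, limma). It met the expression minimum in this comparison through its MUT mean of 5.47 ± 1.61 alone, as the HET mean was 3.9 ± 0.298, and without MUT-1 it fell below the minimum. The WT mean was 5.2 ± 1.81 FPKM.

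*Tek* (chromosome 4, 94739289 to 94874976) encodes TIE2, the angiopoietin receptor. It was at 18.3, 16.6 and 21.1 FPKM in WT, 16.1, 17.0 and 19.8 FPKM in HET and 18.4, 18.8 and 17.1 FPKM in MUT kidneys. Its highest library was WT-3 and its lowest HET-1, and WT-1 and MUT-1 were not raised. The genotype means were 18.7 ± 2.28, 17.7 ± 1.94 and 18.1 ± 0.922 FPKM for WT, HET and MUT, with a log2 fold change of MUT over HET of 0.04 (95% confidence interval -0.20 to 0.27).

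*Tie1* (chromosome 4, 118471191 to 118489849) encodes the orphan receptor that modulates TIE2. It was at 32.3, 28.9 and 22.3 FPKM in the WT libraries, 25.9, 27.9 and 22.8 in the HET libraries and 32.0, 29.2 and 26.1 in the MUT libraries. Unlike *Tek*, *Tie1* was lowest in WT-3 and HET-3 and highest in WT-1 and MUT-1, and the genotypes overlapped. The MUT mean was 29.1 ± 2.93, against 25.5 ± 2.54 in HET and 27.8 ± 5.11 in WT (MUT against HET, log2 fold change 0.18, 95% confidence interval -0.08 to 0.44).

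*Eng* (chromosome 2, 32646595 to 32694175) encodes endoglin, a co-receptor for BMP9 and BMP10 that works with the type I receptor ACVRL1. Values were 30.9, 23.9 and 19.4 FPKM in WT, 25.6, 27.7 and 19.0 in HET and 29.7, 27.9 and 23.1 in MUT. As for *Tie1*, WT-3 and HET-3 were the lowest libraries and WT-1 was the highest. Mean levels were 24.7 ± 5.82 in WT, 24.1 ± 4.54 in HET and 26.9 ± 3.42 in MUT kidneys, and the interval of the log2 difference between MUT and HET ran from -0.17 to 0.49 around 0.16.

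*Pecam1* (chromosome 11, 106654213 to 106715281) encodes CD31, the protein stained as a marker of vessels in the study. It was at 42.7, 42.4 and 45.6 FPKM in WT, 39.4, 41.1 and 43.9 in HET and 40.0, 37.9 and 39.7 in MUT. The 3 MUT libraries were all below the 3 WT libraries, by a small margin (exact permutation test, two-sided, p = 0.1, the smallest possible), and HET overlapped both. The means were 43.6 ± 1.75 in WT, 41.5 ± 2.28 in HET and 39.2 ± 1.1 in MUT. In limma MUT was 0.902 times WT (log2 fold change -0.15, SE 0.11, adjusted p = 1.00) and 0.948 times HET (-0.08, 95% confidence interval -0.31 to 0.15).

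*Cdh5* (chromosome 8, 104088916 to 104144502) encodes VE-cadherin of the adherens junction. It was at 45.6, 38.5 and 33.5 FPKM in WT, 33.0, 34.4 and 36.3 in HET and 48.7, 40.5 and 36.1 in MUT. MUT-1 and WT-1 were again the highest libraries. MUT-3 lay just below HET-3, so that the groups overlapped at that pair. The MUT mean of 41.8 ± 6.39 stood beside a HET mean of 34.6 ± 1.65, a fitted 1.2-fold difference (log2 fold change 0.26, SE 0.13, adjusted p = 0.738), and the WT mean was 39.2 ± 6.05.

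*Emcn* (chromosome 3, 137341078 to 137431069) encodes endomucin, a sialomucin of venous and capillary endothelium. Values were 56.0, 76.7 and 70.7 FPKM in WT, 70.1, 64.7 and 59.6 in HET and 55.8, 60.4 and 69.0 in MUT. *Emcn* ran against most other members, since WT-1 and MUT-1 held its lowest values. The means were 67.8 ± 10.7, 64.8 ± 5.29 and 61.7 ± 6.71 in WT, HET and MUT, and the log2 fold change of MUT over HET was -0.07 (95% confidence interval -0.34 to 0.20).

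*Plvap* (chromosome 8, 71497753 to 71511769) encodes the protein that forms the diaphragms of fenestrae and caveolae in capillaries. It was at 72.4, 65.2 and 51.4 FPKM in WT, 64.6, 74.8 and 49.5 in HET and 70.5, 60.5 and 64.2 in MUT. WT-3 and HET-3 held the lowest values. HET-2, the library with liver transcripts, held the highest. The genotype means were close, at 63 ± 10.7 in WT, 62.9 ± 12.7 in HET and 65.1 ± 5.04 in MUT, with a log2 fold change of MUT over HET of 0.06 (95% confidence interval -0.27 to 0.40).

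*Erg* (chromosome 16, 95359169 to 95586593) encodes the ETS factor. It was at 8.56, 6.68 and 9.46 FPKM in WT, 6.08, 6.94 and 8.55 in HET and 9.08, 10.3 and 7.67 in MUT. The highest library was MUT-2 and the lowest HET-1, but HET-3 was above MUT-3 and the groups overlapped. The mean was 9.01 ± 1.31 in MUT, 7.19 ± 1.25 in HET and 8.23 ± 1.42 in WT. The fitted level of FPKM + 1 in MUT was 1.22-fold that in HET (log2 fold change 0.29, SE 0.15, adjusted p = 0.738, limma).

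**Figure D1:**
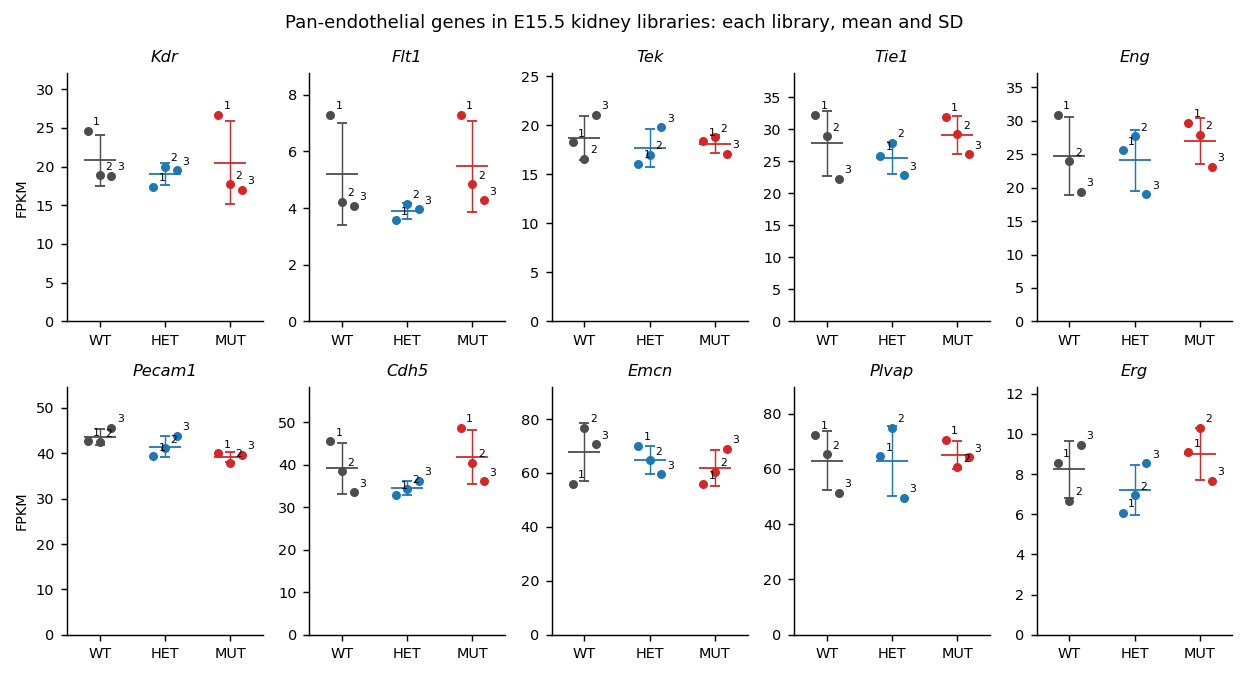
FPKM (y axis, from 0 in each panel) of the 10 members in WT, HET and MUT kidneys. Points are single libraries with their replicate number, horizontal bars are means and error bars are the SD of 3 libraries. For *Kdr* and *Flt1* the libraries WT-1 and MUT-1 stand above the other 7, and for *Pecam1* the MUT points, 37.9 to 40.0 FPKM, lie below the WT points, 42.4 to 45.6 FPKM.

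Between MUT and HET, 8 of 10 members had a higher fitted level in MUT, and *Pecam1* and *Emcn* a lower one. Among all 10081 loci tested, 45.9% were higher in MUT. The log2 fold changes of the members ran from -0.08 (*Pecam1*) to 0.38 (*Flt1*), with a median of 0.12 beside -0.02 over all loci tested. With limma, 0 of 10 members had an adjusted p under 0.05, as did 0% of all loci (0 of 10081), and the adjusted p of the members lay between 0.738 and 0.937. At an unadjusted p under 0.05, 0 of 10 members passed, whereas 6.31% of all loci did (636). This count depended on libraries and settings. Without MUT-3 it was 3 of 10 members (*Cdh5*, *Flt1* and *Erg*), where 1837 of 10159 loci passed, and without HET-3 it was 1 (*Erg*), where 1126 of 10096 loci did. It was also 1 (*Flt1*) with a minimum of 1 FPKM, where 716 of 13041 loci passed, or with no trend, where 611 of 10081 did. Under either correction for transcript properties it was 1 (*Cdh5*). Of 9739 loci, 702 passed with the correction for GC content and 816 with that for GC content and length. The 3 smallest unadjusted p were those of *Cdh5* (0.0656), *Flt1* (0.0707) and *Erg* (0.0727). MUT libraries lay entirely above HET libraries for 1 member, *Flt1*, and for 5.19% of all loci, and entirely below them for 0 members and 4.5% of all loci. *Flt1* met the expression minimum here through its MUT mean alone (5.47 ± 1.61 FPKM, against 3.9 ± 0.298 in HET). Its direction and its lack of overlap were therefore not independent of the minimum. The median of the members rested in part on MUT-1. Without it the median was 0.03, with 6 of 9 members higher, and it was 0.22 without HET-2 or without MUT-3.

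Between MUT and WT, 6 of 10 members had a higher fitted level in MUT, while 48.7% of the 10096 loci tested did. The log2 fold changes ran from -0.15 for *Pecam1* to 0.13 for *Eng*, with a median of 0.06 beside 0.00 for all loci. By limma 0 of 10 members were called at an adjusted p under 0.05, as were 0% of all loci, and every member had an adjusted p of 1.00. At an unadjusted p under 0.05, 0 of 10 members and 0.644% of all loci passed (65 loci). Members whose groups did not overlap were 0 with MUT higher, against 1.32% of all loci, and 1 with MUT lower, *Pecam1*, against 1.34%. The direction of the median depended on single libraries, and it was 0.16 without WT-1, -0.06 without WT-3, -0.04 without MUT-1 and -0.02 without WT-2. With WT-1 and MUT-1 both left out, a choice made after the values were seen, the median was 0.09 and 5 of 9 members were higher in MUT. *Pecam1* was then at a log2 fold change of -0.18 (adjusted p = 0.997).

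Between HET and WT, 0 of 10 members had a higher fitted level in HET, while 52.4% of the 10105 loci tested did. The differences were small, from -0.30 for *Flt1* to -0.01 for *Plvap* on the log2 scale, with a median of -0.09 beside 0.01 for all loci. *Flt1* met the expression minimum here through its WT mean alone (5.2 ± 1.81 FPKM, with WT-1 at 7.29), so that its direction was not independent of the minimum, and without WT-1 it was not tested. Each of the 10 members had an adjusted p of 0.998 in limma, and 0% of all loci passed at an adjusted p under 0.05. At an unadjusted p under 0.05 the counts were 0 of 10 members and 1.07% of all loci (108). HET and WT overlapped for all 10 members, whereas HET lay entirely above WT for 2.15% and entirely below WT for 1.06% of all loci. The uniform direction depended on single libraries, and most on WT-1. Without WT-1, 4 of 9 members were higher in HET, with a median of -0.06, and *Eng* was at 0.14 and *Plvap* at 0.10. Of 10 members, 3 were higher in HET without HET-3, 2 without WT-2 and 1 without WT-3. The number was 0 without HET-1 or HET-2, and 1 with the correction for GC content alone. The 3 comparisons share libraries in pairs, so the order of the genotypes for a member, with HET below both WT and MUT for 8 of 10 members by fitted level, is a description of these 9 libraries.

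**Figure D2:**
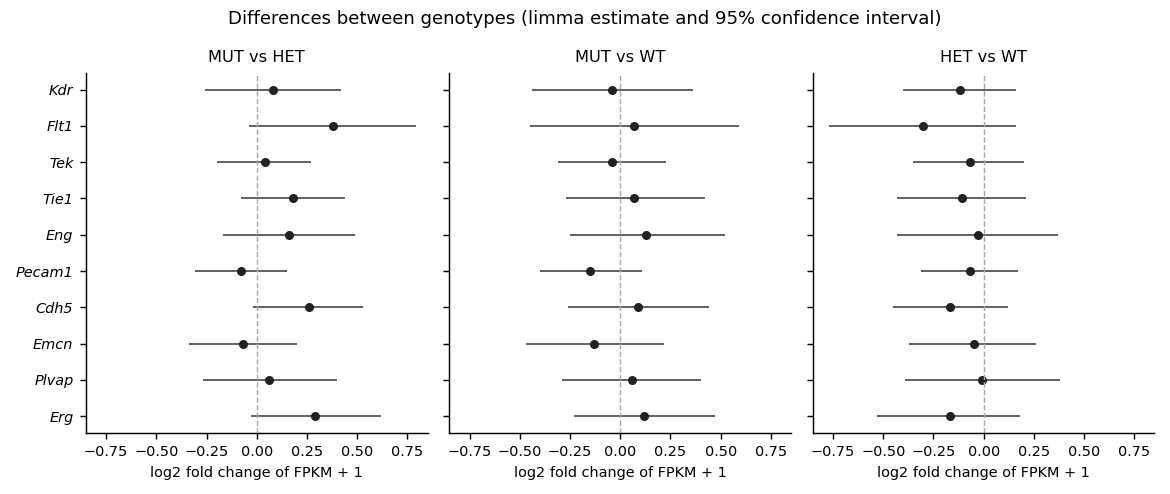
Log2 fold change of FPKM + 1 (x axis) for each member (y axis) in the 3 comparisons of genotypes, with points for the limma estimate and lines for its 95% confidence interval. Every interval crosses 0; the intervals of *Cdh5* (-0.02 to 0.53), *Erg* (-0.03 to 0.62) and *Flt1* (-0.04 to 0.79) between MUT and HET reach least below 0.

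The members divided libraries in a way that crossed genotype. In WT-1, 9 of 10 members were above their own mean over the 9 libraries, and in MUT-1 8 of 10 were, with median deviations of 0.21 and 0.19 on the log2 scale. In HET-1 and HET-3, 3 of 10 members were above their mean, and in MUT-3 2 of 10. HET-1 was the lowest library for 4 members. The summed FPKM of the 10 members ranged from 283 in HET-3 to 339 in WT-1 and 338 in MUT-1.

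The members also differed in how they varied over the 9 libraries, described here by Pearson's r on log2(FPKM + 1). No test was made, since all genes of a library share its depth and composition. *Cdh5* and *Flt1* (r = 0.95), *Kdr* and *Flt1* (0.89) and *Cdh5* and *Kdr* (0.81) varied together, being high in WT-1 and MUT-1. *Tie1* and *Eng* (0.93), *Plvap* and *Eng* (0.88) and *Tie1* and *Plvap* (0.83) also varied together, being low in WT-3 and HET-3, but they were raised in WT-1 and MUT-1 as well, by 0.23 (*Tie1*), 0.27 (*Eng*) and 0.18 (*Plvap*) on average. The 2 groups were therefore not separate. *Cdh5* and *Tie1* had an r of 0.81, *Flt1* and *Tie1* of 0.77 and *Flt1* and *Eng* of 0.68. *Tek* and *Erg* (0.83) formed a pair that was high in WT-3. *Emcn* ran against *Flt1* (r = -0.75), *Cdh5* and *Kdr* (both -0.71), and the receptors *Tek* and *Tie1*, partners in angiopoietin signalling, had an r of -0.42.

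**Figure D3:**
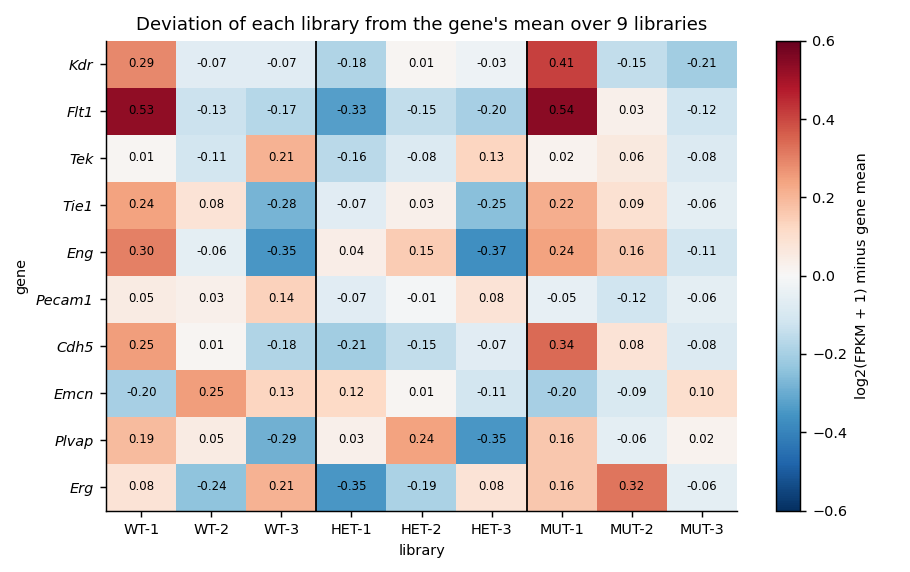
Deviation of log2(FPKM + 1) in each library (columns, grouped by genotype) from the mean of the gene over the 9 libraries (rows, members), with the value printed in each cell, red above and blue below 0. The columns WT-1 and MUT-1 are red for most members and reach 0.53 and 0.54 for *Flt1*, and WT-3 and HET-3 are blue for *Tie1*, *Eng* and *Plvap*.

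Properties of the transcripts moved with these deviations. Over all expressed loci with an annotated transcript, the deviation of a locus in WT-1 and in MUT-1 correlated with the log2 length of its longest transcript (r = 0.42 and 0.51 across loci, which are not independent replicates). Transcripts of at least 6000 nt had a median deviation of 0.18 in WT-1 and 0.20 in MUT-1, and those under 2000 nt had -0.20 in both. *Flt1* (6895 nt) and *Kdr* (5924 nt), the members with the longest transcripts, were also those furthest above their means in these 2 libraries, by 0.54 and 0.35 on average. Length did not order the members fully. *Plvap*, at 1987 nt the shortest, was 0.18 above its mean there, *Tek* (4654 nt) was at 0.02 and *Emcn* (3521 nt) at -0.20, and across the 10 members r was 0.49. In WT-3 and HET-3 the deviation of loci correlated with GC content (r = -0.50 and -0.30). The members with the most GC-rich transcripts, *Plvap* (60.6% GC), *Tie1* (57.8%) and *Eng* (55.5%), were 0.32, 0.26 and 0.36 below their means in these 2 libraries. *Tek* (47.9%) was 0.17 above, and r across the 10 members was -0.69. GC content did not order the members fully either. *Emcn*, with the lowest GC content (43.6%), was at 0.01, *Flt1* (50.2%) at -0.19 and *Erg* (52.9%) at 0.14. The part of length and GC content in any one member's value was not tested beyond the corrected fits. With a correction of each library for both, chosen after the values were seen, MUT was above HET for 6 of 10 members and the median was 0.09. *Flt1* was then at a log2 fold change of 0.27 in place of 0.38, *Cdh5* at 0.27 and *Erg* at 0.34, with a smallest adjusted p among members of 0.564.

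**Figure D4:**
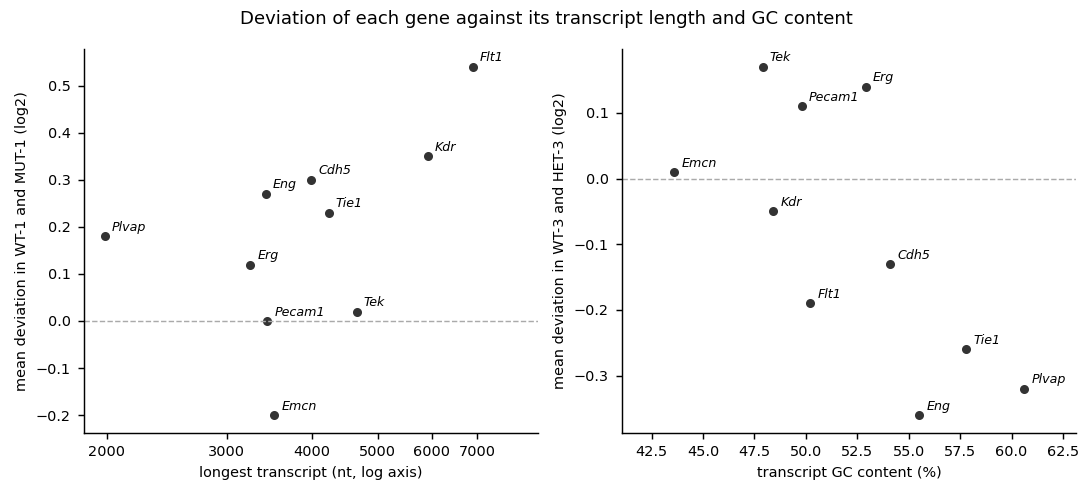
Left, mean deviation of each member in WT-1 and MUT-1 (y axis, log2) against the length of its longest transcript (x axis, nt, log axis). Right, mean deviation in WT-3 and HET-3 against transcript GC content (x axis, %). Points are the 10 members. *Flt1* and *Kdr* lie at the upper right of the left panel at 0.54 and 0.35, and *Eng*, *Plvap* and *Tie1* lie lowest in the right panel at -0.36, -0.32 and -0.26.

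The 8 loci most like the members were named by their correlation with the mean standardized level of the 10 over the 9 libraries, among 10154 other expressed loci. They were *Pou6f1* (r = 0.96), *B3glct*, *Vwa8*, *Srgap1* and *Sertad4* (each 0.95), and *Inf2*, *Arap3* and *Ppp6r2* (each 0.94). Each of the 8 had its highest value in WT-1 or MUT-1, and in *Pou6f1* for example WT-1 and MUT-1 were at 7.30 and 6.91 FPKM and the other libraries at 4.93 to 5.57. The members themselves were unevenly tied to their mean, with r from 0.96 (*Flt1*), 0.90 (*Cdh5*) and 0.89 (*Kdr*) to 0.19 (*Tek*), 0.03 (*Pecam1*) and -0.64 (*Emcn*).

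Set against the mean of the other 9 members in the same library, the members had the following places, with no test made. A rise shared by most members lowers the place of those that do not share it. *Emcn* was thus at 1.11 and 1.09 in WT-1 and MUT-1 and at 1.39 to 1.82 in the other 7 libraries, on the log2 scale. By genotype, *Tie1* was 0.16 ± 0.19 above the others in WT, 0.16 ± 0.12 in HET and 0.22 ± 0.03 in MUT. *Pecam1* was 0.88 ± 0.18 above them in WT, 0.92 ± 0.11 in HET and 0.69 ± 0.13 in MUT, and *Emcn* 1.56 ± 0.39, 1.62 ± 0.15 and 1.40 ± 0.31, both with overlapping groups and with MUT lower than HET by 0.23 and 0.22. *Flt1* was -2.54 ± 0.06 in HET and -2.27 ± 0.25 in MUT, a difference of 0.27 with no overlap, while WT (-2.33 ± 0.30) overlapped both. MUT-1 was at -1.99, whereas MUT-2 and MUT-3, at -2.38 and -2.44, lay just above the highest HET library, HET-3, at -2.48. As said above, *Flt1* met the expression minimum between MUT and HET through its MUT mean alone. No share of all loci was taken for this measure. These are the same libraries and the same values as above, so they add no further test.

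Other genes of the endothelium were read from lists of symbols. Of 25 further pan-endothelial surface and junction genes, 23 were tested, and between MUT and HET 9 were higher and 14 lower in MUT, with a median log2 fold change of -0.06 and 0 called at an adjusted or an unadjusted p under 0.05. The pair with the smallest p were *Gpihbp1*, which anchors lipoprotein lipase to capillaries, and *Ramp2*, a partner of the adrenomedullin receptor. *Gpihbp1* was at 8.22 to 11.5 FPKM in MUT and 9.89 to 14.2 in HET (log2 fold change -0.31, adjusted p = 0.738), and *Ramp2* at 90.3 to 101 and 95.1 to 121 FPKM (-0.22, adjusted p = 0.738). The median of this list lay below 0 and that of the members above 0, and no gene of either was called. Against WT the same 23 genes were 11 higher and 12 lower in MUT (median -0.01), and 10 higher and 13 lower in HET (median -0.02).

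Of 15 endothelial transcription factors, 14 were tested between MUT and HET, with 9 higher, 5 lower and a median of 0.04, and 0 called. *Gata2*, a zinc finger factor of endothelial and blood cells, was at 21.0, 19.4 and 15.9 FPKM in MUT, 13.5 to 17.1 in HET and 12.0 to 17.1 in WT (MUT against HET 0.27, adjusted p = 0.738; MUT against WT 0.42, unadjusted p = 0.0228, adjusted p = 1.00). Its MUT libraries overlapped both other genotypes. *Klf2*, a factor induced by shear stress, had means of 15.1 ± 1.51 in MUT and 12.7 ± 2.06 in HET (0.24, adjusted p = 0.738). Between MUT and WT 10 of 13 were higher in MUT (median 0.05), and between HET and WT 5 of 13 were higher in HET (median -0.01).

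Of 10 ligands of the member receptors, 9 were found under the symbols searched and 6 passed the expression minimum. Between MUT and HET 3 were higher and 3 lower, with a median of 0.05 and 0 called. *Pgf*, the ligand of FLT1, was at 5.56, 4.35 and 6.82 FPKM in MUT, 6.73 to 7.09 in HET and 4.04, 6.54 and 5.71 in WT (MUT against HET -0.29, adjusted p = 0.738). Its HET libraries lay above its WT libraries without overlap (0.32, adjusted p = 0.998, limma), as did those of 2.15% of all loci. *Angpt1*, the activating ligand of TEK, was at 9.36, 16.3 and 8.64 FPKM in MUT and 8.36, 7.59 and 11.6 in HET (0.25, adjusted p = 0.777), with its highest value in MUT-2. Against WT, 5 of 6 ligands were higher in MUT (median 0.05) and 3 of 6 in HET (median -0.01). Of 10 partners of the member proteins, which include co-receptors and catenins, 9 were tested, of which MUT was above HET for 6 and below it for 3 (median 0.10). *Nrp2*, a VEGF co-receptor, was at 9.46, 9.59 and 5.81 FPKM in MUT and 5.37, 6.15 and 6.38 in HET (0.39, unadjusted p = 0.0476, adjusted p = 0.738). *Bmpr2*, the type II receptor that pairs with ACVRL1 and ENG, was at 19.3, 17.1 and 11.8 and at 12.2, 10.8 and 14.7 FPKM (0.32, adjusted p = 0.738). For both genes MUT-3 lay within the range of HET. Between MUT and WT 6 of 9 partners were higher in MUT (median 0.04), and between HET and WT 1 of 9 was higher in HET (median -0.06).

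Since the study stained smooth muscle actin beside CD31, the level of *Acta2*, which encodes that actin, was set against *Pecam1* in each library as the difference of their log2(FPKM + 1). The study measured vessels covered by this actin in images. A ratio of whole-kidney RNA does not measure that cover. The ratio was 0.42, 0.36 and 0.65 in WT libraries, 0.87, 1.19 and 0.59 in HET libraries and 0.38, 0.82 and 0.58 in MUT libraries. HET-2 was highest, and the genotypes overlapped in each comparison. Means were 0.48 ± 0.15 in WT, 0.88 ± 0.30 in HET and 0.59 ± 0.22 in MUT. MUT was 0.29 below HET (exact permutation test, two-sided, p = 0.2) and 0.12 above WT (p = 0.6, same exact test), and HET was 0.41 above WT (p = 0.2, same exact test). Without HET-2 the difference of MUT from HET was -0.14, and that of HET from WT was 0.25. *Acta2* itself was at 52.4 to 67.6 FPKM in MUT, 66.6 to 95 in HET and 54.7 to 72.1 in WT, so that the libraries differed more in *Acta2* than in *Pecam1*. The study reported *Acta2* as lower in MUT than in HET by RNA-seq, and as lower than in *Ntn1fl/fl* kidneys by qPCR.

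**Figure D5:**
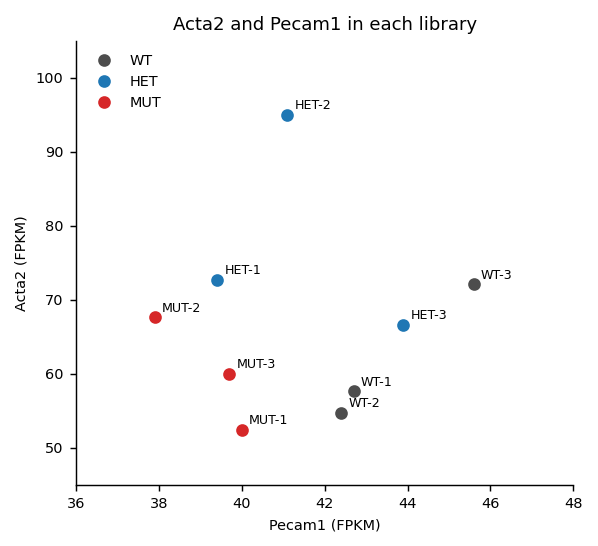
*Acta2* (y axis, FPKM) against *Pecam1* (x axis, FPKM) in the 9 libraries, coloured by genotype and labelled. Neither axis starts at 0. HET-2 stands highest at 95 FPKM of *Acta2*, and the MUT libraries lie at the left, at 37.9 to 40.0 FPKM of *Pecam1*.

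Markers of cells that share some of these genes were read beside the members. The level of the lymphatic endothelial factor *Prox1* was between 0.278 and 0.842 FPKM in all 9 libraries, while summed lymphatic markers, most of it *Pdpn*, which podocytes also express, ran from 20.0 to 28.9 FPKM. Summed macrophage and leukocyte markers (7 of 7 found) were 33.6 to 43.8 FPKM in WT. They were 46.7 to 53.1 in HET and 35.1 to 49.1 in MUT. Their sum was lowest in WT-1 and MUT-1, where most members were above their own mean over the 9 libraries. *C1qb*, its largest part, was at 11.0 and 11.3 FPKM in these libraries and 13.4 to 18.7 in the others. *Ptprc* of the same list did not follow, at 2.08 and 2.20 against 1.73 to 2.47 FPKM. Transcripts under 2000 nt also had a median deviation of -0.20 in both libraries. The part of transcript length in this sum was not tested. Summed megakaryocyte and platelet markers (5 of 5 found), cells that also carry CD31, were 25.7 to 27.0, 26.5 to 32.8 and 26.3 to 29.7 FPKM. Mural and smooth muscle markers (5 of 5 found) summed to 159 to 195 FPKM in WT, 175 to 214 in HET and 163 to 203 in MUT. The log2 fold change of MUT over HET was -0.60 for *Myh11*, -0.37 for *Acta2* and 0.38 for *Rgs5*, the 3 of these genes with an unadjusted p under 0.05 in limma (each with an adjusted p of 0.738), where 6.31% of all loci had one. *Myh11* met the minimum through HET alone, at 6.37 ± 0.878 FPKM against 3.88 ± 0.818 in MUT and 3.8 ± 1.1 in WT. Its HET libraries were above its WT libraries too (log2 fold change 0.64, adjusted p = 0.998, limma), as were those of 2.15% of all loci. The 3 genes lay on both sides of 0. Podocyte markers, from cells that secrete VEGF, ranged from 45.8 in MUT-3 to 100 in WT-1 and thus overlapped across genotypes, and adrenal markers were at 0.606 to 1.09 FPKM in sum. The part of any of these cells in the levels of the members was not tested.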

How the data were processed

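RNA of 9 whole E15.5 kidneys (TRIzol, TruSeq Stranded mRNA kit, NextSeq) was processed by the authors, with STAR for alignment, cufflinks and cuffmerge for transcript assembly and CuffDiff for FPKM, on mm10 by the submitters' processing notes. Versions and the strand setting of the counting are not given in the sources used here. Here the deposited FPKM, given for 24138 loci, were taken unchanged, with groups from the sample labels. Columns of the authors' genotype means were not used, and 0 columns of other samples were present. Starts in the table count from 0, and 1 was added.

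The depth in reads is unknown, so no counting interval is given. Loci that averaged 5 FPKM or more in at least 1 genotype compared, the minimum used by the study, entered limma 3.58.1 (lmFit, eBayes with a trend, under R 4.3.3) as log2(FPKM + 1), two-sided, with Benjamini-Hochberg adjustment over all loci and a threshold of 0.05. Fold changes of low genes are understated on this scale. Each fit held the 6 libraries compared and no replicate block. Exact permutation tests of 3 against 3 libraries are two-sided and unadjusted. The steps were tested on simulated data. Transcript length (longest transcript) and GC content came from GENCODE mouse release 21 on GRCm38, for 95.9% of loci. Promoters came from RefSeq. Tables were made with pandas 2.3.3, numpy 2.4.6 and scipy 1.17.1 under Python 3.11.15.

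The members, the gene lists, the markers and the tests were chosen with earlier results of these data known. The genes named are the 10 members, *Ntn1* and *Foxd1*, from each other list those called between MUT and HET or else the 2 with the smallest p, the 8 loci most like the members, and markers that bear on a result. The alternatives tried were pseudocounts of 0.1 and 3, a minimum of 1 FPKM or none, quantile or median-ratio rescaling, 1 fit of all 9 libraries, the replicate number as a block, no trend, a spline correction for GC content (5 degrees of freedom) and each library left out. A correction for GC content and length together, and WT-1 and MUT-1 left out together, were added after the data were seen. No imaging, qPCR or single-cell data were used here.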

Additional observations from a re-analysis of the deposited data

How the results depend on the processing

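Of 517 fold changes of members under the alternatives, 483 kept their direction and 34 changed sign, 28 of these when 1 library was left out, and 0 reached an adjusted p under 0.05. The smallest adjusted p of a member under any alternative was 0.212 between MUT and HET (*Cdh5*, without MUT-3), 0.857 between MUT and WT and 0.764 between HET and WT. No member's call at an adjusted p under 0.05 depended on a setting. Pseudocounts, minimums, rescaling, a shared fit, the block and the absence of a trend changed no sign. With the GC correction *Plvap* between MUT and WT was at -0.03 and *Emcn* between HET and WT at 0.01. With the correction for GC content and length *Kdr* and *Tek* between MUT and HET were at -0.01 and -0.00, and *Tie1* and *Plvap* between MUT and WT at -0.00 and -0.04. The cause of these changes beyond the corrections themselves was not tested. With 1 library left out the median of the members ranged from 0.03 to 0.22 between MUT and HET (0.22 without MUT-3), from -0.06 to 0.16 between MUT and WT and from -0.16 to -0.06 between HET and WT. Members that changed sign when a library was left out ranged between MUT and HET from -0.12 to 0.19 (*Kdr*), -0.02 to 0.12 (*Tek*) and -0.10 to 0.20 (*Plvap*). Between MUT and WT they ranged from -0.02 to 0.20 (*Cdh5*), -0.23 to 0.08 (*Kdr*), -0.12 to 0.30 (*Flt1*), -0.11 to 0.05 (*Tek*), -0.07 to 0.19 (*Tie1*), -0.08 to 0.16 (*Plvap*), -0.02 to 0.30 (*Eng*) and -0.01 to 0.22 (*Erg*). Between HET and WT they ranged from -0.18 to 0.00 (*Kdr*), -0.16 to 0.01 (*Tek*), -0.26 to 0.00 (*Tie1*), -0.18 to 0.04 (*Emcn*), -0.14 to 0.15 (*Plvap*) and -0.18 to 0.14 (*Eng*). *Flt1* had no value between MUT and HET without MUT-1, nor between HET and WT without WT-1, since it fell below the minimum. In each comparison the number of loci called among all tested ranged from 0 to 3 when 1 library was left out and was 0 under the other alternatives. The calls were 2 without HET-1, 1 without MUT-2 and 3 without MUT-3 between MUT and HET, 3 without WT-1 and 1 each without WT-2 and without MUT-2 between MUT and WT, and 3 without WT-2 and 1 each without WT-3 and without HET-3 between HET and WT, with no member among them. The ratio of *Acta2* to *Pecam1* kept its sign, from -0.43 to -0.14 between MUT and HET, 0.01 to 0.22 between MUT and WT and 0.25 to 0.55 between HET and WT when 1 library was left out. The kidneys came from 3 crosses, but whether a replicate number marks a cross is not stated. Same-numbered libraries did not deviate together in every pair. For numbers 1, 2 and 3 the r of deviations from the genotype mean was -0.31, 0.06 and -0.13 in MUT and HET, 0.55, -0.26 and -0.03 in MUT and WT, and -0.19, -0.06 and 0.18 in HET and WT. MUT-1 and WT-1 did deviate together, and MUT-3 correlated with WT-2 at 0.48, so the numbers were not taken as pairs. With the replicate number as a block 0 loci were called in each comparison, and 494 loci had an unadjusted p under 0.05 between MUT and HET (636 without the block), 201 between MUT and WT (65) and 233 between HET and WT (108). The median of the members with the block was 0.12, 0.06 and -0.09, as without it, and the ratio of *Acta2* to *Pecam1* between MUT and HET was -0.29 (sign-flip test of 3 pairs, exact p = 0.25, the smallest possible). The number of libraries, 3 per genotype, limits what can be seen. The intervals of the members between MUT and HET span differences from -0.34 to 0.79 on the log2 scale, and the FPKM carry no read depth from which a counting error could be had.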
